A study of Mus musculus with 16 samples.

Results

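Fgl2 and the mouse Fc gamma receptor genes were followed through kidney allograft acceptance and rejection. The 6 genes were chosen by name and are Fgl2, the receptor genes Fcgr2b, Fcgr1, Fcgr3 and Fcgr4, and Fcer1g. They are 6 of the 32285 genes listed in any of the matrices used, and all 6 were listed in every matrix. CD45+ cells of kidney grafts and spleens had been profiled by droplet single-cell RNA sequencing from the 3′ end, with a unique molecular identifier (UMI) on every captured transcript. Accepted grafts were DBA/2J kidneys in C57BL/6J (B6) recipients, taken with the recipient spleen at 1, 3, and 24 weeks. Rejecting grafts were B6 kidneys in DBA/2J recipients, taken with the recipient spleen at 1 week. Spleens of naive mice were the untreated controls. The sample labels give C57BL/6J and the wild-type genotype for every sample, no drug treatment is named for any group, and only male mice were used. Recipient strain and rejection therefore could not be told apart, nor could tissue, strain, and transplantation between rejecting kidney and naive spleen.

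Fibrinogen-like protein 2, the product of Fgl2, occurs as a membrane-bound prothrombinase and as a secreted protein that is known as an effector of regulatory T cells and as a ligand of the receptors encoded by Fcgr2b and Fcgr3. Fc gamma receptors bind the constant part of IgG. Fcgr2b encodes the inhibitory receptor, which is best known from B cells and myeloid cells and carries an inhibitory motif in its own tail. Fcgr1 (the high-affinity receptor), Fcgr3, and Fcgr4 encode activating receptors, which signal through the common gamma chain encoded by Fcer1g, an adaptor with an activation motif that NK cells and some T cells use as well.

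In the GENCODE annotation of GRCm38.p6, Fgl2 lay on the plus strand at chr5:21372642-21378374 and had 2 exons, inside the opposite-strand gene Ccdc146. Fcgr2b (chr1:170958617-170976547), Fcgr3 (chr1:171051174-171064935), and Fcer1g (chr1:171229572-171234365) on the minus strand and Fcgr4 (chr1:171018920-171029761) on the plus strand were neighbors on chromosome 1, and Fcgr1 (chr3:96282909-96293969) was on the minus strand of chromosome 3. An antisense gene, Gm38204, overlapped 3175 bases of Fcgr2b. Of the 451 windows of 50 bases in the last 500 bases of each transcript, 0 occurred in another gene, for each of the 6 members. The start regions of Fgl2 and Fcer1g are shown because these 2 genes moved together in CD8+ T cells, and that of Fcgr1 because it held the same motif as Fgl2. Capitals mark TTCNNNGAA, the letters of a gamma-interferon-activated site, which read the same on both strands. The windows run from 250 bases before to 50 bases after the start that RefSeq gives on the same build, which for Fgl2 and Fcer1g is not the outer end of the GENCODE gene, and are chr5:21372423-21372722 (plus strand), chr1:171234300-171234599 (minus strand), and chr3:96293920-96294219 (minus strand).
Fgl2: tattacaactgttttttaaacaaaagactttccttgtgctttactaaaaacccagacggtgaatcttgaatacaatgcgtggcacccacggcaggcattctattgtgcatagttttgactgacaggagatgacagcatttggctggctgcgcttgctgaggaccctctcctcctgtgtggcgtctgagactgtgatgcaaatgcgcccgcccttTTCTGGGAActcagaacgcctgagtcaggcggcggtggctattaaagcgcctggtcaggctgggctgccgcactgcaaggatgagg
Fcer1g: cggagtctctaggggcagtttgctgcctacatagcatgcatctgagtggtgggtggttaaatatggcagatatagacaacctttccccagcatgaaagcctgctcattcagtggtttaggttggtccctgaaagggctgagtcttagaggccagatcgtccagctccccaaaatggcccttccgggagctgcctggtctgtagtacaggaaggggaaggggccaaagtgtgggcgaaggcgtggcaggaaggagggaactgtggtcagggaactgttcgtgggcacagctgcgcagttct
Fcgr1: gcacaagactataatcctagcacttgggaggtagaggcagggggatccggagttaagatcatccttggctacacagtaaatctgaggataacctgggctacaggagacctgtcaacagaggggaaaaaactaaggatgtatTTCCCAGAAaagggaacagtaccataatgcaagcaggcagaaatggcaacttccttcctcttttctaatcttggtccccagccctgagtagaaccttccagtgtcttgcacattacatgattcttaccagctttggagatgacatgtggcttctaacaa
The motif began at position -36 relative to the RefSeq start of Fgl2 and at position -109 relative to that of Fcgr1. It was not found in the windows of Fcer1g, Fcgr2b, Fcgr3, or Fcgr4. The same letters stood in 2726 of 32851 promoter windows of this length (8.30%), and a match of letters does not show a site that is bound.

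Levels are UMIs summed per library and scaled to 1000000 UMIs of the library (CPM). Each library is a tag in the cell barcodes. The 9 matrices of cells that the authors called CD8+ T cells held 32 libraries, with 56 to 8407 cells and 153266 to 25960721 UMIs each. Nothing in the labels says that tags are separate mice, although their number equals the number of replicates the methods give for accepted grafts, so p-values measure the spread between libraries. Shares of cells were counted after thinning every cell to 1000 UMIs, since the median UMIs per cell ranged from 1902.5 to 4538 between CD8 groups. Intervals and limits cover counting error only.

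The libraries labelled 24 weeks went against their tissue labels in part of these checks. Summed over a list of 20 genes of kidney parenchyma, CD8 libraries of spleen held more CPM than those of kidney at 1 and 3 weeks (103 against 45.03, and 48.8 against 35.2) and less at 24 weeks (37.9 against 60.5). At 24 weeks the sum thus went with the labels. A sum that was higher in spleen at 1 and 3 weeks cannot serve as a check of tissue, and nothing is drawn from it. The spleen matrices of 1 and 3 weeks listed only 8 of the 20 genes each, so a count gene by gene is possible for those 8, of which 5 and 6 were higher in kidney CD8 libraries than in spleen CD8 libraries. At 24 weeks all 20 genes were listed in both matrices, and the libraries labelled kidney were higher in 2 and those labelled spleen in 15. A CD8 UMI (Cd8a or Cd8b1) was present in 84.8% and 96.8% of cells of accepted kidney at 1 and 3 weeks, in 44.2% and 46.8% of cells of accepted spleen, in 47.4% of cells labelled kidney at 24 weeks, and in 94.6% of cells labelled spleen at 24 weeks. The share was also high in 2 other spleen matrices, 96.1% in naive spleen and 100% in rejecting spleen. A high share therefore does not mark kidney, and the 94.6% alone does not go against a spleen label. All 4033 barcodes labelled kidney at 24 weeks were among the barcodes of all kidney cells of that time, and all 4535 distinct barcodes labelled spleen were among those of all spleen cells. The CD8+ T cells were picked from those cells, so an exchange before that step would enter both lists and could not show here. The barcodes thus show only that both lists carry the same label. The libraries of 24 weeks are called by their labels below, and no direction between tissues is drawn from them alone.

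The matrix of CD8+ T cells of rejecting kidneys lacked every UMI of Fcgr1. Of 2350 genes with at least 500 UMIs in the 1378 other cells with a Cd3e UMI of rejecting kidneys, only Itgam, Cd4, and Fcgr1 had 0 UMIs in the 2184 CD8+ T cells. Fcgr1 had 727 UMIs in the other cells, against 1156 UMIs for Fcgr4 and 952 for Fcgr3, which had 45 and 47 UMIs in the CD8+ T cells. The myeloid genes Slc8a1 and Mitf, with 3177 and 788 UMIs in the other cells, had 20 and 15. In naive spleen, none of 6380 such genes was at 0 in the CD8+ T cells. The methods describe clusters annotated by hand from known markers and name no limit on these 3 genes, so the 0 UMIs of Fcgr1 are given as a property of that matrix and no difference is drawn from them.

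The soluble effector Fgl2 was highest in CD8+ T cells of accepted kidneys at 3 weeks. Its levels were 333, 380, 400, 375, and 438 CPM in the 5 libraries of 3 weeks and 90.8, 88.0, and 56.4 CPM in the 3 libraries of 1 week. Every library of 3 weeks lay above every library of 1 week. On the log2 scale Fgl2 rose by 2.30 (SE 0.15, adjusted p = 6.52e-09 from the quasi-likelihood test of edgeR, adjusted by Benjamini-Hochberg across the genes tested, as is every adjusted p of a gene below), or 4.93-fold. The median of all genes tested shifted by 0.41 in this comparison, and relative to it the rise of Fgl2 was 1.89.

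Fcer1g, the adaptor, rose with Fgl2 in the accepted kidney. It measured 293, 433, 623, 614, and 503 CPM at 3 weeks and 176, 148, and 99.4 CPM at 1 week, again without overlap, a log2 rise of 1.81 (SE 0.23, adjusted p = 4.47e-06), or 1.40 relative to the median gene. The 5 NK cell genes summed to 27.0 to 31.4 CPM at 1 week and 46.6 to 80.0 CPM at 3 weeks, and in cells with CD3 and CD8 UMIs and no NK cell gene the rise was 2.32 for Fgl2 and 1.87 for Fcer1g. All 6 members passed the filter on low counts, and 2 of them changed, both upward. Across all genes tested, 75% passed the threshold (6251 genes up and 2516 down, or 4112 up and 4165 down with TMM factors), so a call alone was common here and 2 of 6 is no more than the share of all genes.

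The 4 receptor genes were sparse in the same libraries and gave no call. Fcgr2b had 69 UMIs in the 16467 cells of 1 week and 56 UMIs in the 22206 cells of 3 weeks, at 1.28 ± 0.47 CPM (SD, n = 3) and 1.07 ± 0.60 CPM (SD, n = 5), a log2 difference of -0.28 (SE 0.38, adjusted p = 0.518). Fcgr1 measured 0.829 ± 0.49 and 0.741 ± 0.27 CPM at these times (adjusted p = 0.591), Fcgr3 2.06 ± 0.71 and 2.14 ± 0.87 CPM (adjusted p = 0.967), and Fcgr4 1.81 ± 1.2 and 2.43 ± 1.2 CPM (adjusted p = 0.485). The libraries of the 2 times overlapped for each of the 4 receptor genes. The sign of the Fcgr3 and Fcgr4 differences turned with TMM factors (-0.36 and -0.0028).

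**Figure D1:**
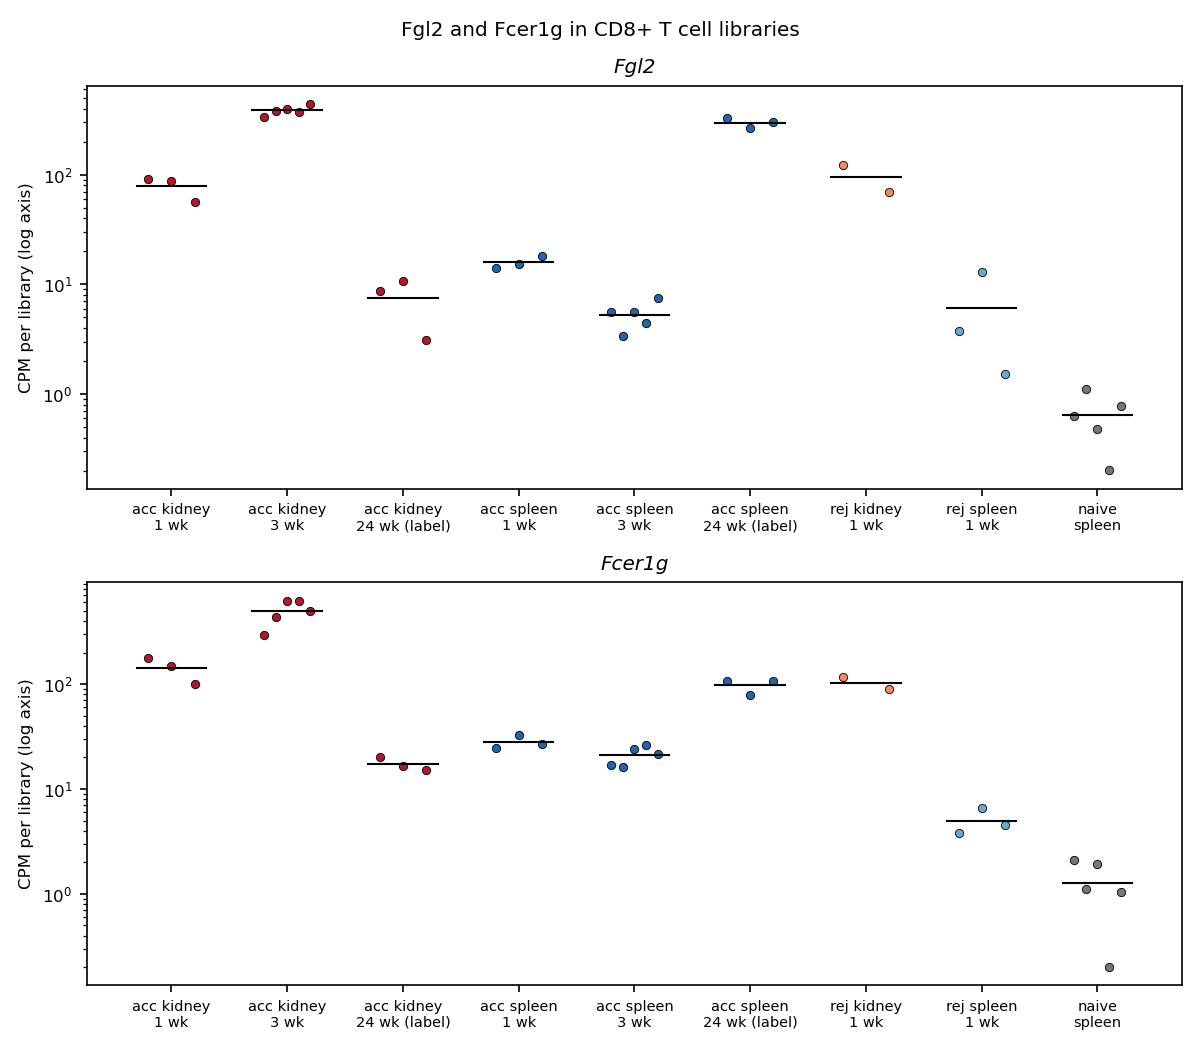
Fgl2 and Fcer1g in CD8+ T cell libraries. Points are libraries and lines are group means in CPM on log axes, for accepted (acc) and rejecting (rej) grafts and spleens and naive spleen. Fgl2 lay between 333 and 438 CPM in accepted kidney at 3 weeks and between 0.202 and 1.11 CPM in naive spleen.

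In the CD8 matrices of recipient spleens of accepted grafts, Fgl2 and the receptor gene Fcgr2b fell between the same times. A CD8 UMI was present in 44.2% and 46.8% of the cells of these matrices at 1 and 3 weeks. Fgl2 measured 14.0, 15.3, and 18.3 CPM at 1 week and 5.58, 3.38, 5.61, 4.45, and 7.45 CPM at 3 weeks, a log2 difference of -1.59 (SE 0.18, adjusted p = 2.8e-06). The median gene shifted by 0.15 (3661 genes up and 2197 down, or 2677 and 2843 with TMM factors). Fcgr2b measured 7.15, 8.17, and 5.42 CPM at 1 week and 1.79 to 3.37 CPM at 3 weeks, a log2 difference of -1.42 (SE 0.24, adjusted p = 9.85e-05). For both genes every library of 3 weeks lay below every library of 1 week. In cells with a CD8 UMI and no UMI of Cd79a, Lyz2, C1qa, Ncr1, or Cd4, Fcgr2b did not pass the filter on low counts. Fcer1g fell by 0.42 on the log2 scale (adjusted p = 0.0221), a call that was lost in cells with a CD8 UMI and no UMI of Cd79a, Lyz2, C1qa, Ncr1, or Cd4 (0.06, adjusted p = 0.884) and without replicate 1 or 2 of 3 weeks or replicate 2 of 1 week (adjusted p = 0.0541 to 0.131). All 3 members that passed the filter were called, against 56.2% of all genes tested.

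Markers of B cells moved with Fcgr2b in these spleen matrices. The 6 B cell genes were all detected and summed to 966 to 1684 CPM at 1 week and 409 to 736 CPM at 3 weeks, and Fcgr2b had 0.0218 UMIs per UMI of the B cell receptor gene Cd79a at 1 week and 0.0331 at 3 weeks, beside 0.0368 in the Cd79a cells of naive spleen. The part of B cell RNA in the Fcgr2b result was not tested.

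The change of Fgl2 differed between graft and spleen. In 1 model of tissue and time, the log2 change from 1 to 3 weeks was 3.90 higher in kidney than in spleen for Fgl2 (SE 0.24, adjusted p = 1.7e-10) and 2.23 higher for Fcer1g (SE 0.31, adjusted p = 8.95e-06), with a median over genes of 0.24. The differences for Fcgr2b (1.14, adjusted p = 0.0547), Fcgr1 (2.77, adjusted p = 0.278), Fcgr3 (0.70, adjusted p = 0.25), and Fcgr4 (1.08, adjusted p = 0.466) did not pass. Of the 6 members tested 2 were called, both upward, against 40.1% of all genes (3597 up and 1342 down, or 2294 up and 2241 down with TMM factors). The Fcgr2b difference was -1.09 in the stricter CD8 cells.

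Within accepted recipients, Fgl2 and Fcer1g were higher in the graft than in the spleen at both early times. At 1 week the log2 difference of kidney and spleen was 2.30 for Fgl2 (SE 0.19, adjusted p = 3.34e-06), 2.33 for Fcer1g (SE 0.20, adjusted p = 4.31e-06), and -2.41 for Fcgr2b (SE 0.27, adjusted p = 3.95e-05). At 3 weeks it was 6.19 for Fgl2 (SE 0.13, adjusted p = 1.26e-17), a 73.1-fold difference, 4.56 for Fcer1g (SE 0.19, adjusted p = 2.62e-13), and -1.26 for Fcgr2b (SE 0.34, adjusted p = 0.0029). No library of the 2 tissues overlapped in Fgl2 or Fcer1g at either time. The 6 B cell genes moved with Fcgr2b and summed to 196 to 219 CPM in kidney and 966 to 1684 CPM in spleen at 1 week, and to 204 to 277 and 409 to 736 CPM at 3 weeks. In the stricter CD8 cells Fcgr2b did not pass the filter on low counts at either time, and the part of B cell RNA in its lower level in kidney was not tested. Fcgr3 differed by 0.42 at 1 week (adjusted p = 0.273) and by 1.12 at 3 weeks (adjusted p = 0.00732), beside a macrophage list of 26.4 to 52.0 CPM in kidney and 4.36 to 6.47 CPM in spleen at 1 week and 36.3 to 85.9 and 2.59 to 6.57 CPM at 3 weeks, whose part was not tested. At 3 weeks Fcgr3 passed the filter on low counts only through kidney, at 1.39 to 3.59 CPM against 0.785 to 1.20 CPM in spleen. Of 4 members tested, 3 were called at 1 week and 4 at 3 weeks, against 51.4% and 67.5% of all genes. The median gene shifted by 0.22 at 3 weeks (5177 genes up and 2214 down, or 3532 and 3334 with TMM factors), and Fcgr3 missed the threshold with DESeq2 (adjusted p = 0.0505). At 3 weeks 2 members were called without kidney replicate 2 and in the stricter CD8 cells. The matrices of the 2 tissues differed in their share of cells with a CD8 UMI, and in cells with CD3 and CD8 UMIs and no UMI of 4 NK cell genes the difference was 3.14 and 8.01 for Fgl2 and 4.30 and 7.09 for Fcer1g at 1 and 3 weeks.

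In the libraries labelled 24 weeks, Fgl2 was low under the kidney label and high under the spleen label. It measured 8.66, 10.77, and 3.12 CPM in the libraries labelled kidney and 328, 265, and 302 CPM in those labelled spleen. The levels under the kidney label overlapped those of accepted spleen at 3 weeks. Against 3 weeks of the same label, the log2 difference of Fgl2 was negative under the kidney label (-5.73, SE 0.22, adjusted p = 1.04e-11) and positive under the spleen label (5.82, SE 0.13, adjusted p = 9.92e-19). Fcer1g differed by -4.84 (adjusted p = 1.8e-10) and by 2.23 (adjusted p = 1.05e-11). Under the kidney label, Fcgr3 (-1.65, adjusted p = 0.00312) and Fcgr4 (-4.37, adjusted p = 0.000286) were also lower than at 3 weeks, and Fcgr2b was higher (1.33, adjusted p = 0.016), a call lost in the stricter CD8 cells (adjusted p = 0.0584) and without replicate 1 or 2 of 24 weeks (adjusted p = 0.0601 and 0.17). The macrophage list (6 of 6 genes detected) summed to 2.53 to 3.54 CPM under the kidney label at 24 weeks and 36.3 to 85.9 CPM at 3 weeks, and the 6 B cell genes to 313 to 530 and 204 to 277 CPM. Their part in the receptor values was not tested. All 5 members tested, Fcgr3 and Fcgr4 among them, were called under the kidney label and 2 of 3 under the spleen label, against 73.5% and 60.6% of all genes. Between the labels at 24 weeks, kidney minus spleen was -5.36 for Fgl2 (SE 0.23, adjusted p = 1.82e-11), -2.51 for Fcer1g (SE 0.14, adjusted p = 3.87e-10), and 0.69 for Fcgr2b (SE 0.52, adjusted p = 0.284), so that 2 of 3 members tested were called, against 53.1% of all genes (1707 up and 3805 down, or 2604 and 2777 with TMM factors). In cells with CD3 and CD8 UMIs and no NK cell gene, the differences between 24 and 3 weeks were -8.55 for Fgl2, -8.15 for Fcer1g, and -3.30 for Fcgr3 under the kidney label and 7.61 for Fgl2 and 4.62 for Fcer1g under the spleen label, and kidney minus spleen was -8.14 for Fgl2 and -5.67 for Fcer1g. The median gene shifted by -0.44 and -0.03, and under the kidney label 1933 genes were up and 6610 down, or 3689 and 3928 with TMM factors. Fcgr1 had 0 UMIs in the 4033 cells labelled kidney at 24 weeks, which allows a share of cells with a UMI of up to 0.0744%, and 39 UMIs in the 22206 cells of 3 weeks. The mean at 3 weeks was 4.80-fold a limit of 3 UMIs over the 24-week group, with no counting error taken for the 39 UMIs.

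**Figure D2:**
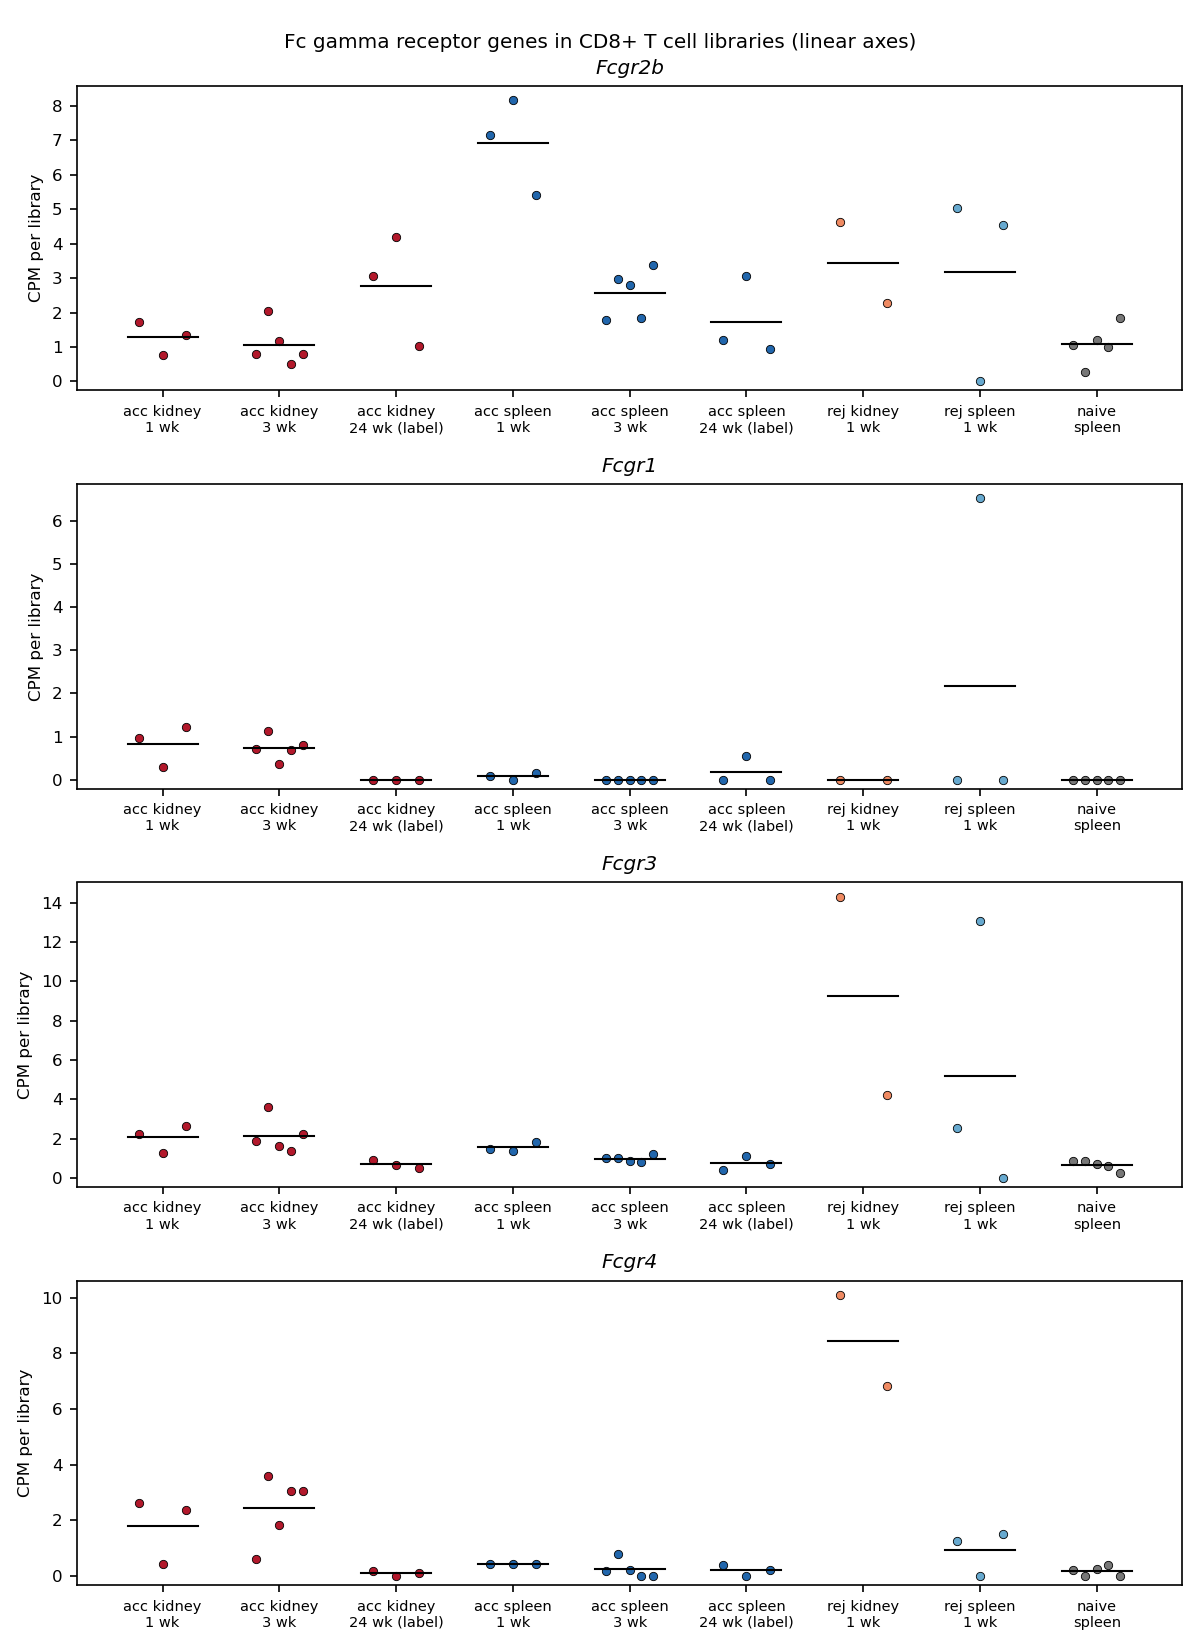
Fcgr2b, Fcgr1, Fcgr3, and Fcgr4 in CD8+ T cell libraries. Points are libraries and lines are group means in CPM on linear axes that differ between panels. Fcgr2b was highest in accepted spleen at 1 week (5.42 to 8.17 CPM), and Fcgr3 and Fcgr4 in the 2 libraries of rejecting kidney and, for Fcgr3, in 1 library of rejecting spleen with 56 cells.

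With plain library totals, CD8+ T cells of rejecting kidneys had more Fcgr3 and Fcgr4 than those of accepted kidneys at the same time. The matrix of rejecting kidneys lacked every UMI of Itgam, Cd4, and Fcgr1. The part of this property in the receptor values was not tested. Fcgr3 measured 14.3 and 4.22 CPM in the 2 rejecting libraries and 2.24, 1.27, and 2.66 CPM in the accepted ones (log2 difference 2.09, SE 0.52, adjusted p = 0.00769). Fcgr4 measured 10.1 and 6.81 CPM, against 2.61, 0.425, and 2.39 CPM (2.17, SE 0.61, adjusted p = 0.0135), and Fcgr2b 4.63 and 2.27 CPM, against 1.72, 0.779, and 1.35 CPM (1.38, SE 0.52, adjusted p = 0.0455). Rejecting and accepted libraries did not overlap in these 3 genes. Fgl2, at 122 and 68.8 CPM, did not differ beyond the spread (0.28, SE 0.29, adjusted p = 0.426), nor did Fcer1g, at 117 and 88.9 CPM (-0.45, SE 0.26, adjusted p = 0.16).

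The median gene was 0.70 higher in rejecting than in accepted libraries, and relative to it the differences were 1.39 for Fcgr3, 1.47 for Fcgr4, and 0.68 for Fcgr2b, and -0.42 for Fgl2 and -1.15 for Fcer1g. With TMM factors the calls of Fcgr3, Fcgr4, and Fcgr2b were lost (1.41, 1.497, and 0.70, with adjusted p = 0.0553, 0.0712, and 0.261) and Fcer1g was called lower (-1.14, adjusted p = 0.00829). Of 6 members tested 3 were called, against 59.4% of all genes (6127 up and 1313 down, or 3443 up and 3222 down with TMM factors). The 6 include Fcgr1, from whose 0 UMIs in rejecting kidneys no difference is drawn, and counts of members called under alternatives may include it. Without rejecting replicate 2, 1 member was called and the Fcgr3 difference was 1.003 (adjusted p = 0.137), and without replicate 3, 4 were called and it was 2.76. The Fcgr2b call was also lost with DESeq2 (adjusted p = 0.354), in cells without NK cell genes (adjusted p = 0.0713), and without accepted replicate 2 or 3 (adjusted p = 0.085 and 0.0708), and Fcer1g was called lower without accepted replicate 3 (adjusted p = 0.0406). The macrophage list (6 of 6 genes detected) summed to 36.3 to 114 CPM in rejecting libraries and 26.4 to 52.0 CPM in accepted ones, and the list of monocyte and other myeloid genes to 543 to 641 and 347 to 461 CPM. The second list holds Ly6c2, which T cells also express. It summed to 343 to 419 CPM in CD8+ T cells of naive spleen, so it does not measure myeloid RNA alone. The part of the 2 lists in the result was not tested.

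Against accepted kidneys at 3 weeks, rejecting kidneys were lower in Fgl2 (-2.02, SE 0.21, adjusted p = 1.42e-05) and Fcer1g (-2.26, SE 0.29, adjusted p = 7.78e-05) and higher in Fcgr3 (2.06, SE 0.48, adjusted p = 0.00369), Fcgr4 (1.79, SE 0.52, adjusted p = 0.0116), and Fcgr2b (1.65, SE 0.58, adjusted p = 0.0299). The rejecting libraries are those of the comparison with 1 week, so the receptor values are the same measurements. All 5 members tested were called, against 60.5% of all genes (5327 up and 2222 down, or 3817 and 3671 with TMM factors), with a median of 0.32. The list of monocyte and other myeloid genes summed to 543 to 641 CPM in rejecting libraries and 146 to 219 CPM in accepted ones of 3 weeks. It holds Ly6c2, which T cells also express, and so does not measure myeloid RNA alone. The macrophage list summed to 36.3 to 114 and 36.3 to 85.9 CPM. The part of the 2 lists was not tested. Without rejecting replicate 2, 2 members were called, with Fcgr3 at 0.98 (adjusted p = 0.170), and without replicate 3 Fcgr3 was at 2.74. The Fcgr4 call was lost in cells without NK cell genes (adjusted p = 0.0609), and that of Fcgr2b with TMM factors and DESeq2 (adjusted p = 0.0726 and 0.0575) and without accepted replicate 1 or 5 (adjusted p = 0.0543 and 0.0525). Within rejecting mice, kidney exceeded spleen in Fgl2 by 4.60 (SE 0.53, adjusted p = 6.09e-05) and in Fcer1g by 4.53 (SE 0.41, adjusted p = 1.37e-05), with Fgl2 at 6.61 in the stricter CD8 cells, while Fcgr3 did not pass (1.77, adjusted p = 0.283). There 2 of 3 members tested were called, against 16.1% of all genes (887 up and 438 down, or 546 and 564 with TMM factors), with a median of 0.25. The 3 libraries of rejecting spleen held 6 UMIs of Fgl2 in 726 cells, at 3.78, 13.05, and 1.51 CPM. The macrophage list summed to 36.3 to 114 CPM in rejecting kidney and 2.52 to 6.52 CPM in rejecting spleen. A CD8 UMI was present in 77.2% of cells of rejecting kidney and 100% of cells of rejecting spleen. The part of these differences between the matrices was not tested.

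In order of its mean level over the 9 CD8 groups, Fgl2 went from accepted kidney at 3 weeks through the libraries labelled spleen at 24 weeks to a pair that overlapped, rejecting kidney and accepted kidney at 1 week. Accepted spleen at 1 week followed without overlap. The libraries labelled kidney at 24 weeks, rejecting spleen, and accepted spleen at 3 weeks came next and overlapped, and naive spleen was the lowest, at 0.202 to 1.11 CPM from 13 UMIs in 4681 cells. Over the 32 CD8 libraries, the genes whose log2(CPM + 1) ran most like that of Fgl2, among 7520 genes with at least 10 CPM, were Rgs1 (Pearson r = 0.975), Efhd2 (0.973), and Fasl (0.964). Those most like Fcer1g were Syngr2 (0.962), Klrc2 (0.954), and Fgl2 (0.940), and those most like Fcgr2b were H2-DMb2 (0.867), Blvrb (0.801), and Tcf4 (0.798). The libraries of a group share tissue and time, so these are descriptions.

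As a share of cells, Fgl2 went from 7.29 ± 1.6% (SD, n = 3) of CD8+ T cells of accepted kidneys at 1 week to 29.2 ± 2.5% (SD, n = 5) at 3 weeks, after thinning. Unthinned, the shares were 18.8 ± 5.8% and 51.3 ± 3.2%. The exact permutation test over libraries, two-sided, gave p = 0.0357, the smallest that 3 against 5 libraries can give, and 0.107 after adjustment over the 12 tests of shares, so the call fails the correction. In Cd79a cells of naive spleen, which mostly lack Fgl2, the thinned share was 0.199 ± 0.054% at a median of 2684 UMIs per cell. Median UMIs were 2558 and 2171 per CD8+ T cell at 1 and 3 weeks of accepted kidney. The thinned share of CD8+ T cells with a Fcgr2b UMI was 0.159 ± 0.070% at 1 week and 0.123 ± 0.093% at 3 weeks in accepted kidneys. Beside it stood 0.123 ± 0.083% of Cd3e cells and 7.19 ± 0.47% of Cd79a cells in naive spleen. The source of these few UMIs was not tested. In accepted spleen it was 0.468 ± 0.18% at 1 week and 0.175 ± 0.14% at 3 weeks.

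Cells with an Fgl2 UMI in accepted kidneys also carried transcripts of the cytotoxic protease gene Gzmb more often. At 1 week Gzmb was found in 48.0 ± 3.5% of cells with Fgl2 and 28.7 ± 2.4% of cells without (SD, n = 3; higher in 3 of 3 libraries), and at 3 weeks in 41.1 ± 3.2% and 32.6 ± 3.1% (SD, n = 5; higher in 5 of 5 libraries). The integrin genes of tissue residency, Itgae and Itga1, were found in 22.2% and 34.7% of cells with Fgl2 and in 17.8% and 29.7% of cells without at 3 weeks, higher in 5 of 5 libraries each. Genes of naive and memory T cells went the other way at 1 week, with Tcf7 in 3.32% against 10.5% and Ccr7 in 1.17% against 4.44%, lower in 3 of 3 libraries each.

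The exhaustion marker Pdcd1 was found in 36.2 ± 6.0% of cells with Fgl2 and 36.8 ± 5.3% of cells without at 3 weeks, higher in 2 of 5 libraries, and Ifng in 13.3 ± 0.98% and 14.7 ± 0.81%, lower in 5 of 5. Il2rb was found in 45.5% and 43.8%, higher in 4 of 5. Fcer1g was more frequent beside Fgl2, in 24.3 ± 5.4% against 17.6 ± 4.3% at 3 weeks (5 of 5) and 11.4 ± 3.0% against 6.56 ± 0.64% at 1 week (3 of 3). The myeloid gene Lyz2 was equally spread at 3 weeks, in 6.41 ± 2.7% and 6.14 ± 2.2% (higher in 3 of 5). Cells of 1 library are not replicates, so these shares were not tested.

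**Figure D3:**
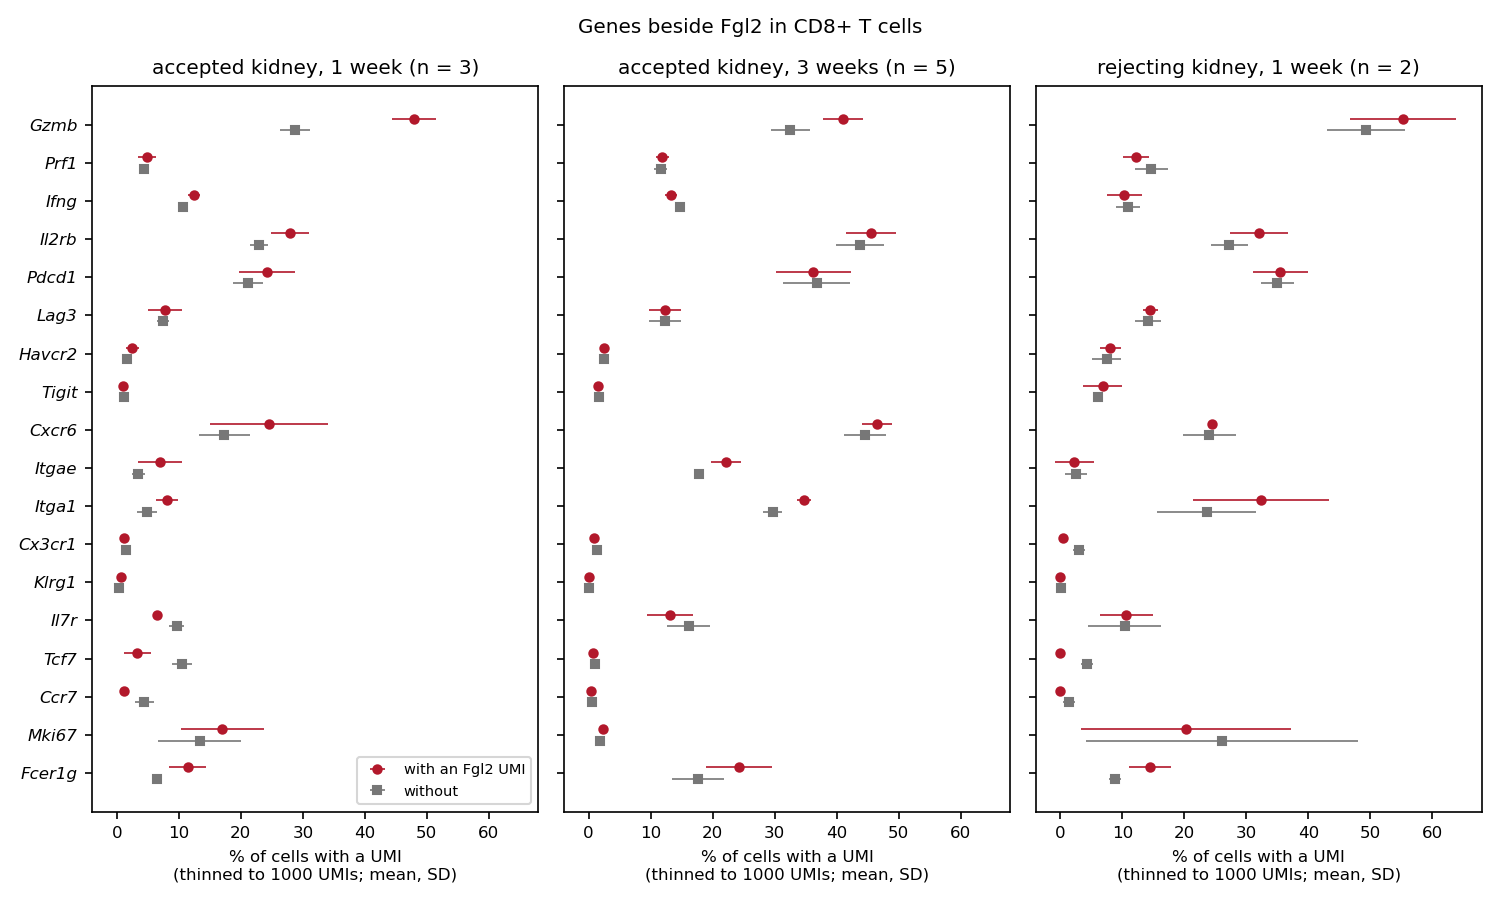
Genes beside Fgl2 in CD8+ T cells. The x axis is the percent of cells with a UMI of each gene after thinning to 1000 UMIs, among cells with an Fgl2 UMI (red circles) and without (gray squares), and bars are SD over libraries. Gzmb at 1 week shows the widest gap, 48.0% against 28.7%.

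Fgl2 and Fcgr2b, ligand and inhibitory receptor, met in few CD8+ T cells. After thinning, 10 of 22206 cells of accepted kidneys at 3 weeks had UMIs of both, where the product of the 2 shares in each library gives 8.18 cells, and 2 of 16467 did at 1 week, where it gives 1.81. The libraries labelled spleen at 24 weeks had 1 such cell and 2.52 expected, accepted spleen at 3 weeks 1 and 0.0684, and rejecting kidney 1 and 0.458. The other 4 CD8 matrices had 0. No CD8 library reached 5 expected cells after thinning, so no odds ratio is given there, and an association within CD8+ T cells was not detectable at this depth. Without thinning, 33 cells of accepted kidneys at 3 weeks had both against 28.2 expected, with log2 odds ratios of 0.13 and 0.27 in the 2 libraries that reached 5 expected cells. After thinning, 28 cells of accepted kidneys at 3 weeks had a Fcgr2b UMI, and of these 25 also had a Cd3e UMI and 0 had a Cd79a UMI. Thinning removes UMIs, so the 0 does not show that these cells lacked Cd79a UMIs before it.

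Across all CD45+ cells of rejecting kidneys the pair met more often than the product of shares, in 441 of 11948 cells against 341 expected, a log2 odds ratio of 0.61 ± 0.0078 (SD over 2 libraries). Within C1qa cells the direction turned with the depth of thinning, with 124 cells against 128 expected (-0.07 ± 0.041) at 1000 UMIs and 49 against 38.9 (0.57 ± 0.14) at 500 UMIs. In Ly6c2 cells it was 134 against 120 (0.676 and 0.160 in the 2 libraries) at 1000 UMIs and 38 against 35.9 at 500 UMIs, where the 2 libraries differed in sign (1.24 and -0.28). Without thinning, which leaves each cell its own depth, the log2 odds ratios were 1.43 over all cells and 0.56 in C1qa cells. These 2 values are means over libraries, and their spread is not given here. In naive spleen 24 of 46722 cells had both, against 30.3 expected, while its Ly6c2 cells held 7 against 2.64. Without thinning, naive Ly6c2 cells held 59 against 30.4 and naive Cd79a cells 47 against 32.9.

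**Figure D4:**
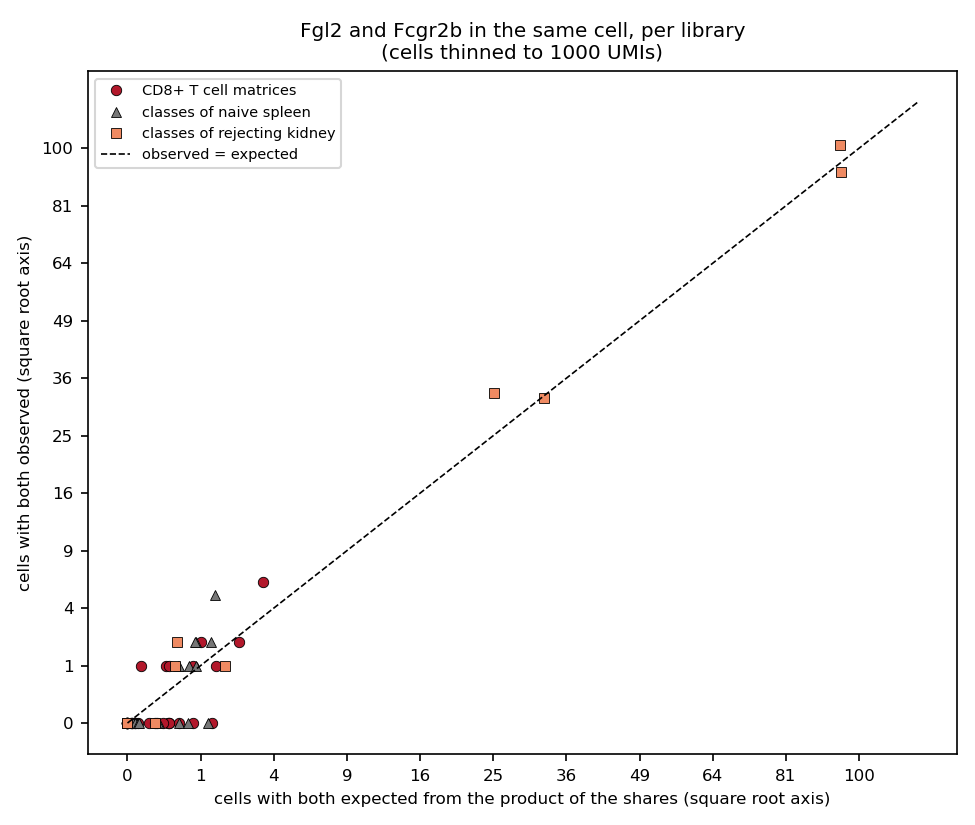
Cells with both Fgl2 and Fcgr2b UMIs per library, observed against the number expected from the product of the shares, on square root axes after thinning to 1000 UMIs. CD8 libraries (red circles) stay near 0 on both axes, and C1qa and Ly6c2 cells of rejecting kidneys (orange squares) lie near the dashed line of equality.

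To place the receptors among cell types, the CD45+ cells of 2 rejecting kidney libraries (11948 cells) and 5 naive spleen libraries (47060 cells) were classed by a UMI of exactly 1 of 5 markers, Cd79a (B cells), Cd3e (T cells), Ncr1 (NK cells), C1qa (macrophages), and Ly6c2 (monocytes and others). Rejecting kidneys had 52, 2043, 216, 1508, and 3527 such cells and naive spleens 28855, 7053, 725, 328, and 1013. Left out of the classes were 2248 cells of rejecting kidney and 3537 of naive spleen with no marker UMI, and 2354 and 5549 with several markers. The cells with several markers were the deepest, at a median of 3276.5 and 5088 UMIs, and entered only values over all cells. Ly6c2 is also expressed by T cells, and the 6 T cell genes summed to 724 to 1886 CPM in the Ly6c2 cells of naive spleen and to 32.0 to 55.9 CPM in those of rejecting kidney. Neutrophil genes summed to 825 to 74201 CPM in the 5 libraries of naive Ly6c2 cells, with a median of 3251 CPM, and to 560 and 731 CPM in rejecting kidney. All CD8+ T cells of rejecting kidney and naive spleen are among the cells of these matrices.

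In naive spleen each member had its own pattern. Fcgr2b, the inhibitory receptor gene, was highest in B cells. It measured 76.1 to 80.1 CPM in Cd79a cells (78.5 ± 1.7, SD, n = 5), 50.8 ± 23 CPM in Ly6c2 cells, 37.5 ± 14 CPM in C1qa cells, 24.7 ± 11 CPM in Ncr1 cells, and 1.25 ± 1.2 CPM in Cd3e cells. Cd79a cells and Ly6c2 cells did not overlap, and Ly6c2, C1qa, and Ncr1 cells did. Against Cd3e cells the log2 difference was 6.00 in Cd79a cells (SE 0.25, adjusted p = 5.43e-18) and 4.33 in Ncr1 cells (SE 0.55, adjusted p = 2.15e-07). The high-affinity receptor gene Fcgr1 was found in C1qa cells (6.14 to 88.8 CPM) and Ly6c2 cells (0 to 28.9 CPM), had 14 UMIs in the 28855 Cd79a cells and 1 in the 7053 Cd3e cells, and had 0 UMIs in the 725 Ncr1 cells, which allows a share of cells with a UMI of up to 0.414%.

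Fcgr3 measured 49.2 to 197 CPM in C1qa cells, 17.4 to 144 CPM in Ly6c2 cells, and 26.9 to 59.8 CPM in Ncr1 cells of naive spleen, and 1.10 to 2.33 CPM in Cd3e cells. Of the activating receptor genes it was the one detected in NK cells, where it exceeded Cd3e cells by 4.82 on the log2 scale (SE 0.35, adjusted p = 7.59e-12), whereas Fcgr4 had 0 UMIs there. Fcgr4 measured 52.1 to 151 CPM in C1qa cells and 1.45 to 23.6 CPM in Ly6c2 cells, without overlap. Fcer1g followed the activating receptors and the NK cells, at 1624 to 2085 CPM in Ncr1 cells, 946 to 1404 CPM in C1qa cells, 423 to 1314 CPM in Ly6c2 cells, 14.5 ± 7.7 CPM in Cd79a cells, and 11.2 ± 9.2 CPM in Cd3e cells.

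Fgl2 itself was a gene of NK cells and myeloid cells in naive spleen. It measured 147, 127, 143, 140, and 206 CPM in Ncr1 cells, 78.7, 148, 97.7, 69.5, and 30.7 CPM in C1qa cells, and 52.5, 38.2, 71.9, 38.3, and 8.72 CPM in Ly6c2 cells. It measured 3.64 to 6.87 CPM in Cd3e cells and 1.97 to 4.11 CPM in Cd79a cells. Every library of Ncr1, C1qa, and Ly6c2 cells lay above every library of Cd3e cells, by 4.97 (SE 0.27, adjusted p = 1.6e-14), 3.96 (SE 0.43, adjusted p = 1.14e-08), and 3.18 (SE 0.29, adjusted p = 4.62e-10) on the log2 scale. Fgl2 was lower in Cd79a cells than in Cd3e cells (-0.78, adjusted p = 0.0261), a call lost without replicate 2 or 4 (adjusted p = 0.168 and 0.0642). All 6 members were called in C1qa and in Ly6c2 cells, 4 in Ncr1 cells, and 3 in Cd79a cells, against 46.7%, 51.7%, 49.8%, and 61.2% of all genes. The median gene shifted by 0.32 in Ncr1 cells (3285 genes up and 823 down, or 1519 and 1654 with TMM factors), 0.14 in Cd79a cells (3264 and 1788, or 2579 and 2257), 0.08 in C1qa cells (2389 and 1470, or 2096 and 2037), and 0.04 in Ly6c2 cells (2544 and 1726, or 2206 and 2447).

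In rejecting kidneys the C1qa and Ly6c2 cells carried all 6 genes. Fgl2 measured 446 and 667 CPM in C1qa cells, 363 and 493.4 CPM in Ly6c2 cells, 121 and 136 CPM in Ncr1 cells, and 133 and 93.5 CPM in Cd3e cells. Fcgr2b measured 297 and 192 CPM in C1qa cells and 167 and 102 CPM in Ly6c2 cells, and 31.2 and 10.9 CPM in Cd3e cells. Against Cd3e cells of the same libraries, C1qa cells were higher by 2.27 (Fgl2), 3.59 (Fcgr2b), 3.31 (Fcgr1), 3.35 (Fcgr3), 3.91 (Fcgr4), and 3.18 (Fcer1g) on the log2 scale, and Ly6c2 cells by 1.90, 2.73, 3.47, 3.50, 3.36, and 3.29 in the same order (the highest adjusted p of these 12 was 1.93e-15). Only 2 libraries entered these tests, and edgeR pools its estimate of spread over genes. Such small p-values therefore do not measure the spread of these 2 libraries alone. All 6 members were called in each, against 49.8% and 56.7% of all genes. Ncr1 cells exceeded Cd3e cells in Fcer1g (1.95, SE 0.21, adjusted p = 5.76e-14) and Fcgr3 (1.32, SE 0.37, adjusted p = 0.0105) and in no other member, against 7.25% of all genes. The 52 Cd79a cells had 10 UMIs of Fcgr2b and 3 of Fgl2, and exceeded Cd3e cells in Fcgr2b (2.34, adjusted p = 0.00711) and Fcer1g (1.38, adjusted p = 0.000785), against 5.95% of all genes (390 up and 251 down, or 292 and 603 with TMM factors). The monocyte and other myeloid list was at 1230 and 1978 CPM in these Cd79a cells, and its part was not tested. The median gene shifted by -0.20 in Cd79a cells, -0.14 in C1qa cells, and -0.26 in Ly6c2 cells.

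**Figure D5:**
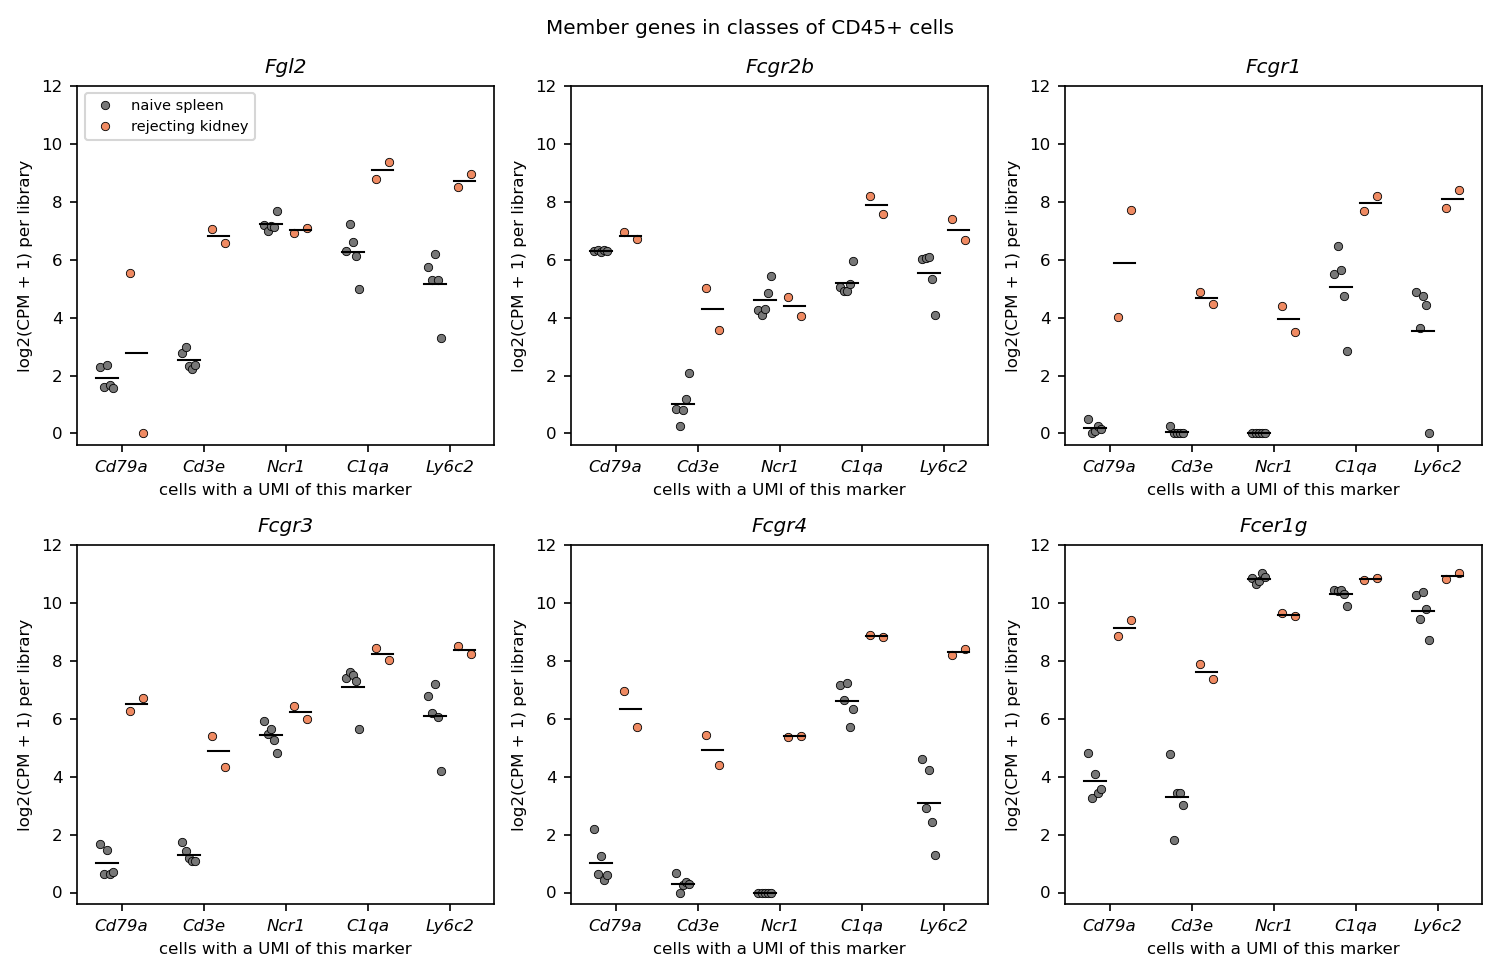
The 6 genes in classes of CD45+ cells. Points are libraries, lines are means, and the y axis is log2(CPM + 1) in cells with a UMI of exactly 1 marker, for naive spleen (gray, 5 libraries) and rejecting kidney (orange, 2 libraries). Fgl2 was near 7 in Ncr1 cells of both tissues and higher in rejecting kidney in Cd3e, C1qa, and Ly6c2 cells.

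Between the tissues, Fgl2 was higher in rejecting kidney than in naive spleen in 3 of the 4 classes compared and did not pass in NK cells. The log2 difference was 4.53 in Cd3e cells (SE 0.20, adjusted p = 7.72e-09), 2.77 in C1qa cells (SE 0.33, adjusted p = 5.12e-06), 3.29 in Ly6c2 cells (SE 0.42, adjusted p = 0.000147), and -0.25 in Ncr1 cells (SE 0.25, adjusted p = 0.48). Whether these differences differ between classes was not tested. Fcer1g fell in Ncr1 cells by 1.24 on the log2 scale (SE 0.15, adjusted p = 9.61e-07), from 1624 to 2085 CPM in naive spleen to 799.6 and 748 CPM, and did not pass in C1qa cells (0.51, adjusted p = 0.094). The 5 NK cell genes of the Ncr1 cells summed to 3696 to 4525 CPM in naive spleen and 1721 and 1827 CPM in rejecting kidney. All 5 were detected in naive spleen and 4 in rejecting kidney, where Klra8 was at 0 in the Ncr1 cells and over all cells. Strain could not be told apart from tissue here, so the lower sum does not measure NK cell content alone. The monocyte and other myeloid list summed to 409 to 518 and to 764 and 956 CPM. The part of both lists in the Fcer1g value was not tested. Fcgr4 had 16 UMIs in the 216 Ncr1 cells of rejecting kidney, 40.5 and 41.9 CPM, and 0 in those of naive spleen. The mean in rejecting kidney was 30.7-fold a limit of 3 UMIs over the naive group, with no counting error taken for the 16 UMIs. In the same 216 cells, the 6 macrophage genes (C1qa at 0 by the class rule, the other 5 detected) summed to 83.7 and 142 CPM, against 2.51 to 13.5 CPM in naive spleen, and their part in the Fcgr4 value was not tested.

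The receptor genes were higher in the C1qa and Ly6c2 cells of rejecting kidney than in those of naive spleen. In C1qa cells Fcgr2b was higher by 2.73 (SE 0.32, adjusted p = 4.91e-06), Fcgr1 by 2.60 (SE 0.40, adjusted p = 6.06e-05), and Fcgr4 by 2.07 (SE 0.29, adjusted p = 2.39e-05), and Fcgr3 by 1.03 (SE 0.33, adjusted p = 0.0168), a call lost with TMM factors, with DESeq2, and without rejecting replicate 2 (adjusted p = 0.0739, 0.116, and 0.183). In rejecting and naive C1qa cells the monocyte and other myeloid list summed to 3950 to 4260 and 1016 to 1909 CPM, the macrophage list to 6472 to 6692 and 2286 to 5404 CPM, and the T cell list to 23.7 to 47.4 and 88.8 to 381 CPM, and the neutrophil list reached 7286 CPM in 1 naive library. Their part was not tested. In Ly6c2 cells the largest differences were those of Fcgr4 (4.59, SE 0.45, adjusted p = 2.89e-05) and Fcgr1 (3.86, SE 0.49, adjusted p = 0.000145), and the smaller ones of Fcgr2b (1.36, adjusted p = 0.0137) and Fcer1g (1.10, adjusted p = 0.0272) were lost without rejecting replicate 2 (adjusted p = 0.152 and 0.0801), Fcer1g also without rejecting replicate 3 (adjusted p = 0.154), without naive replicate 2 or 4 (adjusted p = 0.0588 and 0.0557), and with TMM factors (adjusted p = 0.0631). The content of the Ly6c2 class moved with these values, since the 6 T cell genes summed to 724 to 1886 CPM in naive Ly6c2 cells and 32.0 to 55.9 CPM in rejecting ones, the macrophage list to 108 to 366 and 872 to 979 CPM, and the neutrophil list reached 74201 CPM in 1 naive library. Their part was not tested. In Cd3e cells all 6 members were higher, by 4.09 (Fcgr2b) to 8.62 (Fcgr1), beside a macrophage list of 66.4 and 178 CPM in rejecting kidney and 2.57 to 14.4 CPM in naive spleen, whose part was not tested. The members called were 6 of 6 in Cd3e cells, 5 of 6 in C1qa cells, 6 of 6 in Ly6c2 cells, and 2 of 5 in Ncr1 cells, against 68.9%, 43.5%, 48.4%, and 32.6% of all genes. The median gene shifted by 0.54 in Cd3e cells, 0.23 in C1qa cells, and 0.13 in Ly6c2 and Ncr1 cells. With TMM factors the genes up and down went from 6210 and 1949 to 4135 and 3807 in Cd3e cells, from 1484 and 655 to 1226 and 953 in Ncr1 cells, from 1390 and 683 to 1073 and 1017 in C1qa cells, and from 3018 and 1849 to 2578 and 2335 in Ly6c2 cells. Without naive replicate 5, the Fgl2 difference was 2.57 in C1qa cells and 3.05 in Ly6c2 cells.

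Each member was also set against the myeloid gene Lyz2 as a ratio of UMIs. Fgl2 had 6.43 UMIs per Lyz2 UMI in CD8+ T cells of accepted kidneys at 3 weeks (3.73 to 9.23 over libraries) and 1.46 at 1 week, beside 0.0534 in Ly6c2 cells and 0.175 in C1qa cells of rejecting kidneys. Fcer1g had 8.20 and 2.62, beside 0.232 and 0.617. The receptor genes lay below the ratios of C1qa cells and, except Fcgr1, near or above those of Ly6c2 cells. At 3 weeks Fcgr3 had 0.0354, Fcgr4 0.0398, Fcgr2b 0.0176, and Fcgr1 0.0122 UMIs per Lyz2 UMI, beside 0.0355, 0.0374, 0.0129, and 0.0364 in Ly6c2 cells and 0.112, 0.161, 0.0916, and 0.0799 in C1qa cells. Myeloid cells of accepted kidneys were not analysed here, and those of rejecting kidneys come from other libraries and the reverse strain combination, so the part of myeloid RNA was not tested.

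The genes around the receptors were described by a list of 27 genes of Fc receptor signaling and related receptors. In CD8+ T cells of accepted kidneys 23 were tested, of which 19 rose and 2 fell from 1 to 3 weeks, with a median log2 change of 1.21 against 0.41 over all genes, of which 75% were called (6251 up and 2516 down, or 4112 and 4165 with TMM factors). Among those that rose were the tyrosine kinase genes Lyn (2.08) and Syk (1.95), the phosphatase genes Inpp5d (1.26) and Ptpn6 (0.87), which act downstream of inhibitory receptors, the adaptor genes Hcst (1.27) and Tyrobp (0.72), and the cytokine receptor gene Il2rb (1.21). Fcgrt, the neonatal Fc receptor gene, fell (-1.56). Of the genes of the list best known from B cells, Fcrl1 fell (-1.50), and Fcmr rose by 4.23, Fcrla by 3.69, and Blnk by 3.04, as did the B cell markers Ms4a1 (3.16) and Cd79a (2.65), while the 6 B cell genes summed to 196 to 219 CPM at 1 week and 204 to 277 CPM at 3 weeks. The part of B cell RNA in the list was not tested. In the model of tissue and time 20 of 24 list genes changed more upward in kidney and 1 more downward, against 40.1% of all genes called (3597 up and 1342 down, or 2294 and 2241 with TMM factors). In rejecting against accepted kidneys at 1 week 14 of 19 were higher and 0 lower (median 1.47 against 0.70), against 59.4% of all genes called (6127 up and 1313 down, or 3443 and 3222 with TMM factors), with Lyn at 3.62 and Inpp5d at 2.45. Against accepted kidneys at 3 weeks 10 of 23 were higher and 4 lower (median 0.59 against 0.32), against 60.5%. The list of monocyte and other myeloid genes, which holds Ly6c2, a gene that T cells also express, summed to 543 to 641 CPM in rejecting libraries. In accepted ones it summed to 347 to 461 CPM at 1 week and 146 to 219 CPM at 3 weeks. The macrophage list summed to 36.3 to 114 CPM, beside 26.4 to 52.0 and 36.3 to 85.9 CPM. The part of myeloid RNA was not tested. Between accepted kidney and spleen at 1 week 3 of 24 were higher in kidney and 15 lower (median -1.56), against 51.4% of all genes called (3200 up and 2816 down), and at 3 weeks 10 of 23 were higher and 9 lower (median 0.07), against 67.5%. The 6 B cell genes summed to 196 to 219 CPM in kidney and 966 to 1684 CPM in spleen at 1 week. At 3 weeks they summed to 204 to 277 and 409 to 736 CPM, and their part was not tested. From 1 to 3 weeks in accepted spleen 6 of 24 rose and 13 fell (median -0.76), against 56.2%, and under the kidney label 9 of 23 were higher and 12 lower at 24 than at 3 weeks (median -0.55), against 73.5%. The 6 B cell genes summed to 966 to 1684 CPM in accepted spleen at 1 week and 409 to 736 CPM at 3 weeks. Under the kidney label they summed to 204 to 277 CPM at 3 weeks and 313 to 530 CPM at 24 weeks. There the macrophage list summed to 36.3 to 85.9 and 2.53 to 3.54 CPM. The part of these cell types was not tested.

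Over the 35 class sums of the CD45+ libraries, the genes most like each member shared its cell types. For Fgl2 they were Gsap (r = 0.952), Afdn (0.925), and Tln1 (0.902), for Fcgr2b the signaling genes Lyn (0.923), Syk (0.922), and Plcg2 (0.912), for Fcgr1 Slc8a1 (0.954), Pla2g4a (0.9501), and Nlrp3 (0.947), for Fcgr3 Snx10 (0.935), Fcer1g (0.933), and Cd44 (0.931), for Fcgr4 Tbxas1 (0.972), Pla2g4a (0.970), and Slc8a1 (0.970), and for Fcer1g Itgam (0.971), the related adaptor gene Tyrobp (0.962), and Prr5l (0.941). Classes of 1 library share its depth, so these values carry no test.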

How the data were processed

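The authors prepared libraries from sorted viable CD45+ cells with the 10x Chromium Next GEM 3′ kit, aligned reads to mm10 with Cell Ranger (version not given in the sources used here), removed cells by UMIs, genes, and mitochondrial content, and picked CD8+ T cells from Seurat clusters annotated by hand. The values used are UMI counts per gene and cell, as deposited by the authors, without normalization. Their limits on cells and any removal of doublets are not given in the sources used here, and no doublet caller was run.

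UMIs were summed per tag of the cell barcodes (library) and, in the CD45+ matrices, per class of cells with a UMI of exactly 1 of 5 markers. Sums were tested with edgeR 4.0.16 (R 4.3.3; glmQLFit and glmQLFTest, plain library totals, filterByExpr, Benjamini-Hochberg adjusted p under 0.05 over all genes tested), classes of 1 matrix with library as a block. Shares of cells were taken after thinning to 1000 UMIs, leaving out shallower cells (313 cells of accepted spleen at 1 week, 53 at 3 weeks, 97 labelled spleen at 24 weeks, and in naive spleen 67 of 328 C1qa, 129 Cd79a, 14 Cd3e, 9 Ncr1, and 7 Ly6c2 cells), and tested by exact permutation over libraries (SciPy 1.17.1). Odds ratios had 0.5 added to each count. Alternatives were TMM factors, DESeq2 1.42.0, no filter, a stricter choice of CD8+ T cells, 2 marker UMIs per class, no thinning, thinning to 500 UMIs, and leaving out each library. The choice of CD8+ T cells without NK cell genes, the block of tag numbers, and the co-occurrence of Fgl2 and Fcer1g were added after seeing the data.

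On simulated counts with 200 changed genes, the test recovered 67.0 to 95.5% of 2-fold and 91.5 to 99.0% of 4-fold changes in accepted CD8 comparisons, 17.5 to 55.5% and 79.5 to 90.0% where rejecting libraries entered, and 1.0 to 63.5% and 22.0 to 92.0% between classes of rejecting kidney. Named genes were the 6 members, the 3 genes most like each by Pearson r of log2(CPM + 1) among genes with at least 10 CPM, and a pathway list of 27 genes, of which some are counted but not named here. Itgam, Cd4, Slc8a1, and Mitf were named after their values were seen. The members and lists were chosen with earlier results of these data known. Gene positions came from GENCODE and promoter windows from RefSeq (both GRCm38.p6), where all 6 members matched. Over 496 pairs of CD8 libraries, at most 21 barcodes were shared, and the highest share of the smaller library was 1.79%.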

Additional observations from a re-analysis of the deposited data

Results flagged for a closer look

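The change of Fgl2 and of Fcer1g from 1 to 3 weeks differed between accepted kidney and spleen CD8+ T cells in the model of tissue and time, by 3.90 and 2.23 on the log2 scale (edgeR, adjusted p = 1.7e-10 and 8.95e-06). These 2 genes passed that test among the 6 members, against 40.1% of all genes. The difference was 4.88 for Fgl2 and 2.79 for Fcer1g in cells with CD3 and CD8 UMIs and no NK cell gene.

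In 43 combinations of a member and a group of 4 or more libraries, 5 values stood apart from the other libraries of their group by Dixon's criterion, which chance meets in about 1 of 20 groups. Naive replicate 5 held 4 of them. Its Ncr1 cells had 206 CPM of Fgl2, above the other 4 libraries (127 to 147 CPM). Its C1qa cells had 61.4 CPM of Fcgr2b, the highest of 5, and 49.2 CPM of Fcgr3 and 946 CPM of Fcer1g, the lowest of 5. Fcgr4 was at 0.796 CPM in replicate 2 of accepted spleen CD8+ T cells at 3 weeks, where the 5 libraries together held 6 UMIs.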

How the results depend on the processing

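Across alternatives, 1143 of 1216 log2 differences of members kept their direction and their side of the threshold, 36 lost the call, 15 gained it, and 22 changed direction, none of the last a called value other than that of Fcer1g in accepted spleen. The cause of these changes was not tested. From 1 to 3 weeks in accepted kidney, the Fcgr3 difference was -0.36 with TMM factors, -0.35 with DESeq2, and -0.15 in the stricter CD8 cells, that of Fcgr4 was -0.0028 with TMM factors, and leaving out libraries gave -0.61 to 0.24 for Fcgr1, -0.24 to 0.28 for Fcgr3, and -0.048 to 0.67 for Fcgr4. In accepted spleen the stricter CD8 cells gave 1 member called and an Fcer1g difference of 0.063. Between rejecting and accepted kidney at 1 week the Fgl2 difference was -0.41 with TMM factors, -0.40 with DESeq2, and -0.18 to 0.64 leaving out libraries, with 1 to 4 members called. Against 3 weeks, 2 to 5 members were called. Between kidney and spleen, no filter gave 5 members at 1 week (3 to 5 leaving out libraries), and the stricter CD8 cells and those without NK cell genes gave 2 each at 3 weeks (2 to 5 leaving out libraries). In the model of tissue and time the stricter CD8 cells gave 3022 genes and differences of -1.09 for Fcgr2b and -0.65 for Fcgr4. Between rejecting kidney and spleen, DESeq2 gave 853 genes, 1 fit over 9 groups gave 3916, and leaving out libraries gave 594 to 1871.

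Among classes, no filter gave 8121 genes in naive Cd79a cells, where more genes were tested. Naive Ncr1 cells gave Fcgr1 differences of 2.74 with DESeq2 and -1.56 to 0.040 leaving out libraries, and an Fcgr4 difference of 0.63 with DESeq2. With 2 marker UMIs, rejecting Cd79a cells gave 422 genes and an Fcgr3 difference of -0.13, and rejecting Ncr1 cells gave 487 genes (505 with DESeq2), where the Fcgr2b difference was -0.13 with TMM factors. Between rejecting and naive Ncr1 cells, 2 marker UMIs gave 1243 genes, 1 member, and an Fgl2 difference of 0.071, and leaving out libraries gave 1283 to 2082 genes, 1 to 2 members, and -0.64 to 0.043 for Fcgr2b. In C1qa cells no filter gave 3669 genes and leaving out libraries 1346 to 2497, and in Ly6c2 cells leaving out libraries gave 3117 to 4906. For shares of cells without thinning, the change was -0.0339 points for both genes in spleen from 1 to 3 weeks and -0.40 points for Fcgr2b under the spleen label from 3 to 24 weeks. Leaving out libraries gave Fcgr2b changes of -0.0501 to 0.17 points there, -0.0720 to 0.00343 in kidney from 1 to 3 weeks, and -0.0823 to 0.126 under the kidney label from 3 to 24 weeks, and -0.0168 to 0.0246 for both genes under the spleen label. The log2 odds ratio was 1.43 over all rejecting cells without thinning, 0.56 in C1qa cells without thinning and 0.57 with thinning to 500 UMIs, and 0.13 over all naive cells without thinning. The values without thinning are means over libraries whose spread is not given here, so no direction is drawn from them.

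Tag numbers are shared by kidney and spleen libraries, but nothing in the labels says that a number marks a mouse. Same-numbered libraries correlated at 0.088 to 0.305 at 1 week, 0.0919 to 0.499 at 3 weeks, and 0.0684 to 0.238 at 24 weeks in their deviations from the group means, and libraries of other numbers at -0.284 to 0.170, -0.317 to 0.156, and -0.179 to 0.0924. With the tag number as a replicate block, the kidney and spleen difference of Fgl2 was 2.26, 6.19, -5.37, and 4.33 at 1, 3, and 24 weeks and in rejecting mice, and that of Fcer1g 2.30, 4.53, -2.50, and 4.23. Depth limits Fcgr1, Fcgr3, and Fcgr4 in CD8+ T cells, which had 0 to 127 UMIs in a group.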

Other observations

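In the libraries labelled spleen at 24 weeks, CD8+ T cells with an Fgl2 UMI also held Gzmb (29.1% of cells with Fgl2 and 22.0% without), the chemokine receptor gene Cxcr6 (49.2% and 40.7%), and Itga1 (24.9% and 17.6%) more often, in 3 of 3 libraries each. In CD8+ T cells of rejecting kidneys the same comparison gave 55.3% and 49.3% for Gzmb (higher in 1 of 2 libraries) and 32.4% and 23.6% for Itga1 (2 of 2). Fgl2 and its co-moving gene Fcer1g met in 1625 cells of accepted kidneys at 3 weeks against 1316 expected from the product of their shares (log2 odds ratio 0.59 ± 0.11, SD over 5 libraries) and in 132 against 78.7 at 1 week (0.87 ± 0.26, SD over 3 libraries).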
